A study of Mus musculus with 24 samples.

Results

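Colorectal tumors from mice labelled homozygous for a c-MAF knockout were compared with tumors labelled heterozygous for it: 3 libraries of each, 6 of the 24 RNA-seq libraries in the series. Both groups carry the leading number 8 in their titles, which the labels do not explain, and are called KO-8-homo and KO-8-hetero here. All libraries came from AOM/DSS-treated mice: azoxymethane (AOM) damages DNA in the colon, and dextran sulfate sodium (DSS) in the drinking water inflames it, a pairing widely used to raise colon tumors. Beside the 6 tumors stand the 2 normal libraries of each KO-8 genotype, 4 tumors of young wild-type mice (WT-young) and 3 tumors titled heterozygous with the leading number 1 (KO-1-hetero), all after the same treatment. The other libraries are KO-1-hetero normal, WT-young normal, and tumor and normal of old wild-type mice (WT-old). All 24 libraries feed the estimate of spread behind the p-values. Wild-type titles say young or old, and the knockout titles give no age. Strain, exact age, sex, the design of the allele, any Cre driver and which pieces shared a mouse are not given in the sources used here. Nothing in the labels ties each library to a separate animal, so p-values measure only the spread between libraries. Levels are FPKM, fragments per kilobase of transcript, scaled to sequencing depth, and differences are on the log2(FPKM + 1) scale, homo minus hetero, which understates changes of low genes. Of 24346 genes, 12969 reached 1 FPKM in 3 or more of the 6 tumors and were tested, and a gene is called at a limma adjusted p below 0.05.

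c-MAF is a basic leucine zipper transcription factor best known in macrophages and in T cell subsets, where it takes part in setting cytokine production. Interferon gamma, made mainly by T and natural killer cells, acts through its receptor and the JAK kinases. The response, in which the transcription factor IRF1 takes part, switches on guanylate-binding proteins, immunity-related GTPases, chemokines and the machinery that presents peptides on MHC class I. In the colon, Wnt signals hold the stem cells at the crypt base, and AOM/DSS tumors commonly carry activated beta-catenin.

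Maf, the gene named by the genotype label, overlapped between the homo- and hetero-labelled tumors. It lies on chromosome 8 at 115682942 to 115707794, minus strand (GRCm38, GENCODE vM21). Maf measured 2.9996, 4.73 and 4.05 FPKM in the 3 KO-8-homo tumors and 5.21, 4.46 and 2.62 FPKM in the 3 KO-8-hetero tumors. The difference was -0.03 (SE 0.238, limma adjusted p 1). The WT-young tumors measured 2.26, 1.92, 1.90 and 1.63 FPKM for Maf, all below every KO-8 tumor, and the KO-1-hetero tumors 4.43 to 7.40 FPKM. Knockout-labelled tumors thus had more Maf RNA than WT-young tumors, a difference that was not tested here. The WT-old tumor, also wild-type, measured 7.26 FPKM for Maf, above every KO-8 tumor. In normal tissue Maf measured 6.27 and 3.99 FPKM with the homo label and 2.78 and 1.52 FPKM with the hetero label, a difference of 0.97 (limma adjusted p 0.0435) in the direction opposite to the label. A value per gene cannot show a deleted exon, so it does not check the label, and every direction below is one between libraries labelled homo and hetero. The related small MAF genes Maff, Mafg and Mafk differed by 0.07, 0.40 and 0.07, and the neighbouring gene Wwox by -0.01, with none called.

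The 3 homo-labelled tumors resembled each other, whereas the 3 hetero-labelled tumors stood apart from one another. The median gene had an SD of 0.132 between the homo-labelled tumors and 0.261 between the hetero-labelled tumors on the log2 scale, against 0.166 between WT-young tumors. KO-8-hetero tumor 2 had high levels of markers of other tissues: its squamous markers Krt5, Krt14, Krt13 and Trp63 summed to 7596 FPKM against 7.55 to 49.3 in the other 5, and its skeletal muscle markers Acta1, Ckm, Mylpf and Tnnt3 to 518.5 against 4.09 to 9.75. In bulk tissue, fewer cells of a type and less RNA per cell cannot be told apart. KO-8-hetero tumor 3 and both KO-8-hetero normal libraries had high Xist, the RNA of the inactive X chromosome, at 48.8, 18.2 and 7.38 FPKM, where the other 7 KO-8 libraries had 0.0385 to 0.0719. The Y-linked Ddx3y was at most 0.0454 FPKM in those 3 and at least 8.97 in the rest. The goblet and colonocyte marker sums were highest in KO-8-hetero tumor 3, at 4496 and 2207 FPKM, against 478 to 2611 and 163.9 to 577.9 FPKM in the other 5. KO-8-hetero tumor 1 had an estimated relative depth of 1.87, against 1.01 to 1.32 for the other 5. The epithelial marker Epcam measured 596 to 922 FPKM in the 6 tumors, and macrophage marker sums overlapped between the groups (449.8 to 661.5 FPKM homo-labelled, 314.8 to 533 FPKM hetero-labelled).

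**Figure D1:**
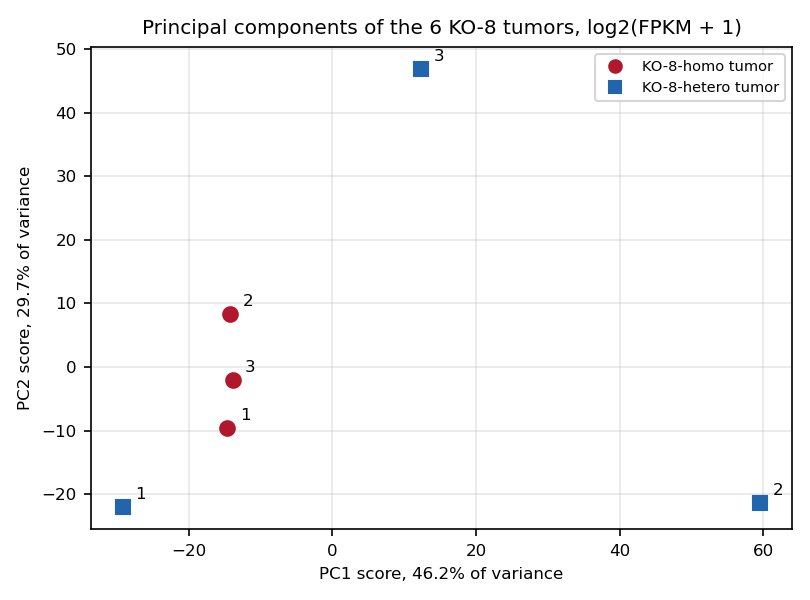
Scores of the 6 KO-8 tumors on the first and second principal component of log2(FPKM + 1), which carry 46.2% and 29.7% of the variance. Circles are homo-labelled and squares hetero-labelled tumors, with their replicate numbers. The homo-labelled tumors lie between -14.6 and -13.9 on the first component and the hetero-labelled tumors at -29.1, 59.6 and 12.3.

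The genes that fell in the homo-labelled tumors were interferon-inducible GTPases, proteins that attack the vacuoles of intracellular microbes. Over all genes 10 were called (0.0771%), 2 higher (0.0154%) and 8 lower (0.0617%), and the 8 lower genes were Gbp2, Gbp3, Igtp, Irgm1, Iigp1, Tgtp1, Tgtp2 and Gm12250. All 8 belong to the 19 GTPase genes tested out of 26 listed. Gbp2b, Gbp10, Gbp11 and Mx2 were in the files but too low to be tested, and the other 3 listed symbols were not matched to the files. At an unadjusted p below 0.05, which 5.98% of all genes reached (3.13% higher, 2.85% lower), 17 of the 19 were lower and 0 higher. For 15 of the 19 the groups did not overlap, with homo lower, where 9.33% of all genes did not overlap (4.51% higher, 4.82% lower). Gm4951 and F830016B08Rik entered the test through the hetero-labelled tumors alone, so their groups had to be separate with homo lower. Both are counted in the 15 and in the median below. Their differences were -1.90 and -1.15 (limma adjusted p 0.0568 and 0.154). The median difference of the 19 was -1.55, beside 0.01 over all genes. No GTPase was called when any 1 homo-labelled tumor was left out (16 or 17 of 19 were lower at an unadjusted p below 0.05), with the 6 KO-8 tumors alone (15) or with the 14 tumors alone (17). Without KO-8-hetero tumor 1, 2 or 3, 13, 5 and 2 were called, and 1 was called without the 6 libraries of high Xist.

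Among the guanylate-binding proteins, large GTPases that coat and rupture pathogen vacuoles, Gbp2 changed most. It measured 23.7, 15.04 and 20.9 FPKM in the homo-labelled tumors and 113, 215 and 103 FPKM in the hetero-labelled tumors. All 3 hetero-labelled values were above all homo-labelled values, a 7.25-fold ratio of means and a difference of -2.74 (SE 0.4, limma adjusted p 0.0145). Gbp3 measured 6.61, 6.42 and 5.92 against 35.5, 27.2 and 21.97 FPKM, also without overlap (-1.97, SE 0.292, limma adjusted p 0.0145). Gbp4, Gbp5, Gbp6 and Gbp7 had non-overlapping groups and differences of -1.53, -1.38, -1.37 and -1.23, with limma adjusted p-values of 0.0523, 0.0816, 0.229 and 0.059. Gbp8 and Gbp9 overlapped between the groups, at -0.73 and -0.57. For both, KO-8-hetero tumor 1 was the highest of the 6 (9.24 and 19.5 FPKM), and KO-8-hetero tumor 2 (3.02 and 7.14 FPKM) lay inside the homo-labelled range. The gene models of Gbp4, Gbp8 and Gbp9 overlap in the annotation, so their reads may be split uncertainly.

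The immunity-related GTPases include the effectors, which load onto vacuoles, and the Irgm proteins, which restrain them on the membranes of the host. Irgm1, of the second kind, measured 21.1, 24.3 and 19.7 FPKM in homo-labelled and 66.8, 64.5 and 94.8 FPKM in hetero-labelled tumors. The groups were far apart, with a difference of -1.73 (SE 0.265, limma adjusted p 0.0145). Igtp, the third Irgm protein, measured 16.4, 16.9 and 12.3 against 56.8, 44.0 and 105 FPKM (-2.02, limma adjusted p 0.0145). Irgm2 overlapped, with 22.8 FPKM in KO-8-hetero tumor 2 inside the homo range of 18.7 to 26.2, and its difference of -0.71 was not called (limma adjusted p 0.669). Its gene model overlaps that of Igtp.

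Of the effectors, Tgtp1 measured 4.28, 2.18 and 1.71 FPKM in homo-labelled and 22.96, 23.3 and 26.9 FPKM in hetero-labelled tumors. This was the widest separation among the 19 by ratio of means, 8.94-fold (-2.83, SE 0.452, limma adjusted p 0.0154). Its close copy Tgtp2 measured 5.53, 3.42 and 3.63 against 22.1, 14.2 and 22.2 FPKM (-1.98, limma adjusted p 0.0279). Reads of the pair may be shared between them, and the model of Olfr56 on the opposite strand spans both. Iigp1 measured 15.1, 7.16 and 7.16 against 52.0, 63.9 and 95.6 FPKM (-2.76, limma adjusted p 0.0411). Gm12250, annotated as a processed pseudogene in GENCODE vM21, measured 1.66, 2.60 and 1.85 against 10.8, 10.7 and 17.7 FPKM (-2.19, limma adjusted p 0.0145). Ifi47 had 21.0, 19.2 and 18.1 against 52.95, 52.4 and 73.3 FPKM and missed the threshold (-1.55, limma adjusted p 0.0625). Mx1, an antiviral GTPase driven mainly by type I interferon, overlapped between the groups (-0.48, limma adjusted p 0.942).

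**Figure D2:**
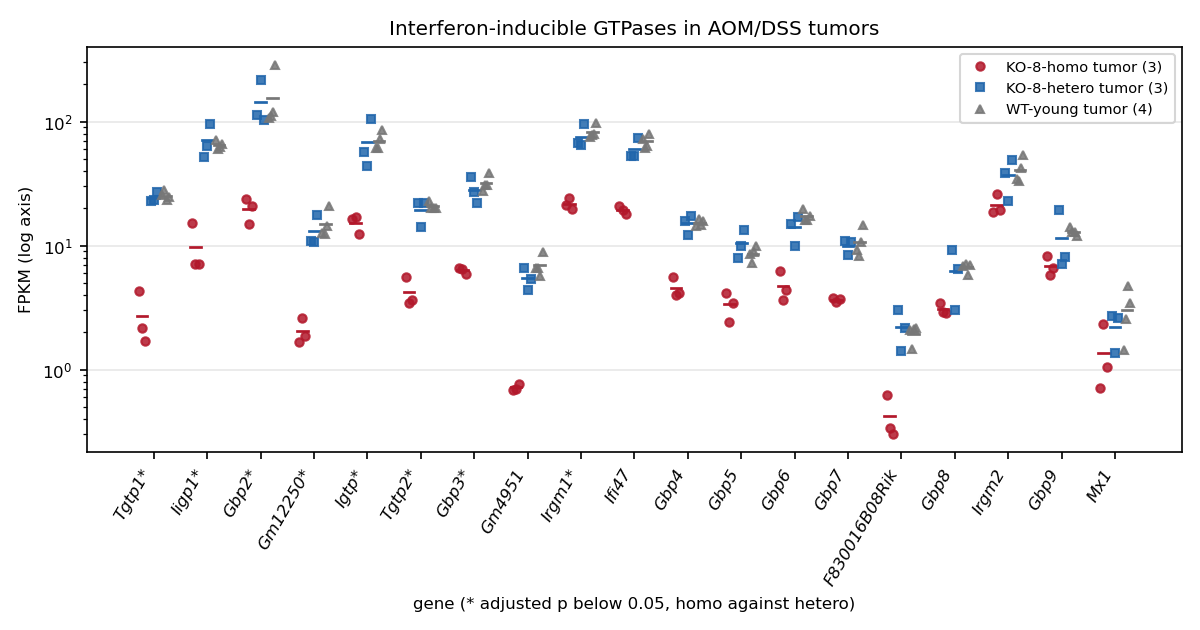
FPKM on a log axis of the 19 tested GTPase genes in the 3 KO-8-homo, 3 KO-8-hetero and 4 WT-young tumors; each point is 1 library, each short bar a group mean, and a star marks a limma adjusted p below 0.05 for homo against hetero. Circles lie below squares for 15 of the 19, and the WT-young triangles lie above every circle for 18 of the 19. The 15 include Gm4951 and F830016B08Rik, for which the filter on level fixed this order.

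WT-young tumors gave GTPase levels near those of the hetero-labelled tumors. Gbp2 measured 107, 111, 119 and 284 FPKM in the 4 WT-young tumors, and Tgtp1 25.6, 27.8, 23.2 and 24.6 FPKM. For 18 of the 19 genes all 4 WT-young tumors lay above all 3 homo-labelled tumors, without a test of this difference here. The mean log2(FPKM + 1) over the 19 was 2.80, 2.61 and 2.55 in the homo-labelled, 4.36, 4.02 and 4.45 in the hetero-labelled, and 4.29 to 4.62 in the WT-young tumors. The KO-1-hetero tumors crossed this order, since tumors 1, 2 and 3 had means of 4.32, 2.95 and 4.14, which puts 1 heterozygous-labelled library near the homo-labelled values. Those 3 tumors were all above the homo-labelled ones for 11 of the 19 genes.

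The 19 genes sit in a few clusters of paralogs, with 4 on chromosome 3, 4 on chromosome 5 and 7 on chromosome 11, so they are not independent observations. RefSeq (GRCm38.p6) gives promoter windows, 250 bases before to 50 after the start, for 11 of the 19. Windows of Gbp2, Irgm1, Igtp, Tgtp1 and Tgtp2 are printed 5′ to 3′ because they belong to called genes and show the letters that interferon-responsive promoters are known for. Capitals mark the motif TTCNNNGAA, known as GAS, and the motif bound by IRF proteins, known as ISRE, searched as GAAA, any 2 bases and GAAA again, both on either strand. The windows are chr3:142620413-142620712 (plus strand) for Gbp2, chr11:48871371-48871670 (minus) for Irgm1, chr11:58199306-58199605 (plus) for Igtp, chr11:48992197-48992496 (minus) for Tgtp1 and chr11:49064163-49064462 (minus) for Tgtp2.
Gbp2: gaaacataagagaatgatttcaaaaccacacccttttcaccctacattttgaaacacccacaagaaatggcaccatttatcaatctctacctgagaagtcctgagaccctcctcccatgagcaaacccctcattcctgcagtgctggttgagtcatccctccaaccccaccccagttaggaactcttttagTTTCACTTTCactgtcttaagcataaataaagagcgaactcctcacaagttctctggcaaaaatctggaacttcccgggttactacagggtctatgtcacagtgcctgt
Irgm1: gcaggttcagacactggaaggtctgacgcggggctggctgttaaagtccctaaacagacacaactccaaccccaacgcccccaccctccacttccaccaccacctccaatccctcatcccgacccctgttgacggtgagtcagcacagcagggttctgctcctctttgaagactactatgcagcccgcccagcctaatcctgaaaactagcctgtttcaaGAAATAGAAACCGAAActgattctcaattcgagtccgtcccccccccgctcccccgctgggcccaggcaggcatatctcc
Igtp: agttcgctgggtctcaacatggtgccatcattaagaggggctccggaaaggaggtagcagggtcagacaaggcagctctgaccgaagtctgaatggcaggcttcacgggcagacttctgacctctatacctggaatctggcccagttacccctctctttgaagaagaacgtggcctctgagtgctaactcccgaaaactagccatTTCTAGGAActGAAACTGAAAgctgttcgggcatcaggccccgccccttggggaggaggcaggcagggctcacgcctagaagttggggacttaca
Tgtp1: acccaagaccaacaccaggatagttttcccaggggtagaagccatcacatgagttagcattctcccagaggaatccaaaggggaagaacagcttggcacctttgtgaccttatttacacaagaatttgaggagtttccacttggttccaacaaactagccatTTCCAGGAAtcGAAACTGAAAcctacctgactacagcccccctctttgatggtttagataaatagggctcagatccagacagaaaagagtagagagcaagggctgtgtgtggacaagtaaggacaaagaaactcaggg
Tgtp2: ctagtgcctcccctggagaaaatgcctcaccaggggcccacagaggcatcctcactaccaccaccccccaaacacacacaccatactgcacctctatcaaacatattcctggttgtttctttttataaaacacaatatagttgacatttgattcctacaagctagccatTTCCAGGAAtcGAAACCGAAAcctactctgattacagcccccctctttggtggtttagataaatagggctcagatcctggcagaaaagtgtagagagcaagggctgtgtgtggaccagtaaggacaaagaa
In Igtp, Tgtp1 and Tgtp2, and in Irgm2, which is not shown, a GAS match was followed after 2 bases by an ISRE match. In Irgm1 the capitals are a pair of ISRE matches that share 4 letters. Over the 12 windows of the 11 genes, 10 held an ISRE (83.3%) and 7 a GAS (58.3%). Over all 32851 windows of the table the shares were 3.44% and 8.3%. The paralogs share sequence, and a match is a run of letters, not a measured binding site.

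Among genes of the interferon gamma pathway itself, none was called. Ifng was too low to be tested. It measured 0.184, 0.0855 and 0.0400 FPKM in homo-labelled and 0.340, 0.391 and 1.08 FPKM in hetero-labelled tumors, without overlap and below 1 FPKM in all but 1 tumor. Of the 21 pathway genes tested, 5 were lower and 0 higher at an unadjusted p below 0.05, where 2.85% of all genes were lower. Irf1 measured 58.3, 60.8 and 63.0 against 79.4, 100 and 190 FPKM, with no overlap (-0.91, limma adjusted p 0.525). The feedback inhibitor Socs1 and Nlrc5, which drives MHC class I transcription, gave -1.05 and -1.37 and were not called. The median of the 21 was -0.01.

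Ido1, which degrades tryptophan, had the widest difference of any gene with separate groups and just missed the threshold. It measured 13.01, 8.09 and 8.01 FPKM in homo-labelled and 68.2, 64.7 and 194 FPKM in hetero-labelled tumors (-3.20, SE 0.61, limma adjusted p 0.0523), and 59.4 to 117 FPKM in WT-young tumors. Of 36 interferon-stimulated genes outside the GTPases, 0 were called and the median was -0.56. At an unadjusted p below 0.05, 12 were lower and 0 higher, where 2.85% of all genes were lower. Samhd1 and Zbp1, sensors or restrictors of foreign nucleic acid, gave -1.05 and -1.28 with separate groups. The chemokines Cxcl9 and Cxcl10, which draw CXCR3-bearing T cells, gave -2.46 and -2.10. Cxcl9 measured 10.5, 4.09 and 4.16 FPKM against 25.1, 33.7 and 54.6 FPKM, so that the groups did not overlap (limma adjusted p 0.154).

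The MHC class I and immunoproteasome genes, which cut, carry and display peptides to CD8 T cells, had smaller negative differences. None of the 19 tested was called, while 15 were lower at an unadjusted p below 0.05 and 12 had separate groups, and all 19 had a fitted difference below 0 (median -0.79), 18 of them under quantile normalization. At that unadjusted p 2.85% of all genes were lower, and 4.82% had separate groups with homo lower. Psmb9, a catalytic subunit of the immunoproteasome, measured 27.0, 24.3 and 19.6 FPKM in homo-labelled and 74.8, 51.7 and 90.2 FPKM in hetero-labelled tumors (-1.55, SE 0.308, limma adjusted p 0.0621). Tap1, a peptide transporter subunit, measured 15.3, 13.96 and 11.1 against 50.5, 29.9 and 53.3 FPKM (-1.62, limma adjusted p 0.096). For B2m, the shared light chain, KO-8-hetero tumor 2 (981 FPKM) lay just above the highest homo-labelled tumor (955 FPKM), and for the heavy chain H2-K1 it lay inside the homo range. B2m and H2-K1 were chosen after their values were seen. MHC class II genes, which include the regulator Ciita, had 0 of 11 called and a median of -0.28. Without KO-8-hetero tumor 1, 2 or 3 that median was -0.15, -0.77 and -0.16.

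**Figure D3:**
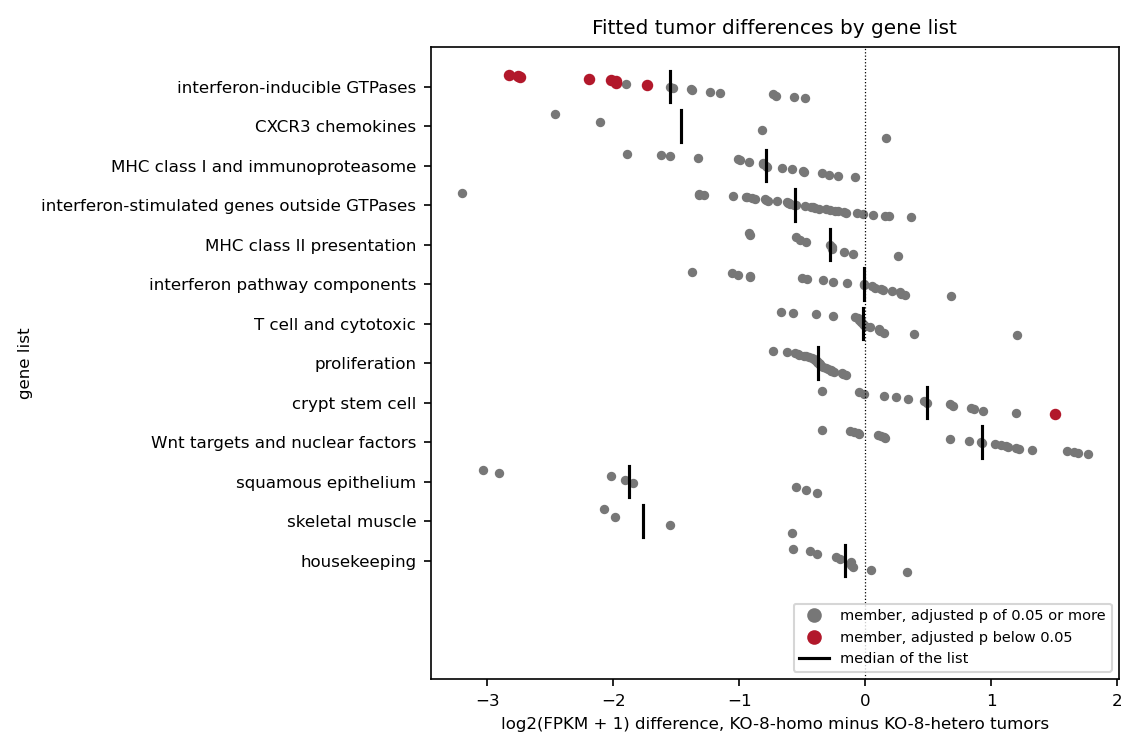
Fitted log2(FPKM + 1) difference, KO-8-homo minus KO-8-hetero tumors, of each tested member of 13 gene lists; points are genes, red points have a limma adjusted p below 0.05, and black bars are list medians. The GTPases have a median of -1.55 and hold the 8 called lower genes, while Lgr5 is the called gene of the crypt stem cell list and T cell genes centre near 0.

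The T cell list had no called member and centred near 0 with all 6 tumors. Of 19 tested T cell and cytotoxic genes, 0 were called and the median was -0.02. Without KO-8-hetero tumor 1, 2 or 3 the median was 0.13, -0.28 and 0.02, so it depended on the library left out. Cd3e, of the T cell receptor complex, measured 1.75, 1.44 and 1.67 FPKM in homo-labelled and 2.86, 0.832 and 1.62 FPKM in hetero-labelled tumors. Gzmb, a cytotoxic granule protease, measured 5.51, 2.87 and 5.15 against 5.60, 2.97 and 4.44 FPKM. For both genes, which were chosen after their values were seen, the groups overlapped. The groups were separate for 1 gene with homo higher and 2 with homo lower, against 4.51% and 4.82% of all genes. Zap70, a T cell receptor kinase, was the first, at 6.67, 9.72 and 5.88 FPKM against 5.47, 0.900 and 2.76 FPKM (1.20, limma adjusted p 0.399). Klrd1, a receptor of natural killer and CD8 T cells, measured 1.07, 0.923 and 0.686 against 1.92, 1.90 and 1.61 FPKM (-0.58, limma adjusted p 0.838). Nkg7, a cytotoxic granule protein also chosen after its values were seen, measured 1.91, 1.93 and 1.39 against 3.98, 1.98 and 4.505 FPKM (-0.67, limma adjusted p 0.942). Of the T cell markers too low to be tested, Cd8b1 and Prf1 also had separate groups with homo lower, and Cd8a overlapped. Cd8b1 measured 0.700, 0.819 and 0.616 against 1.39, 0.932 and 1.12 FPKM, and Prf1 0.237, 0.118 and 0.220 against 0.412, 0.286 and 0.251 FPKM. The sum of 11 T cell markers was 27.0 to 31.5 FPKM in the homo-labelled tumors. It was 44.8, 16.4 and 32.95 FPKM in hetero-labelled tumors 1, 2 and 3. Tumors 1 and 3 thus lay above the homo-labelled range, and only tumor 2, with the squamous and muscle markers, lay below it.

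On the higher side, Lgr5 rose in the homo-labelled tumors. Lgr5 is a receptor for R-spondins and the usual marker of crypt stem cells. It measured 18.3, 23.2 and 17.3 FPKM in homo-labelled, 7.94, 4.27 and 6.89 FPKM in hetero-labelled and 9.36 to 16.2 FPKM in WT-young tumors. The KO-8 groups did not overlap, at a 3.08-fold ratio of means and a difference of 1.51 (SE 0.269, limma adjusted p 0.0411). The other called gene, A730046J19Rik on the X chromosome, measured 2.64, 1.98 and 2.04 against 0.813, 0.154 and 0.275 FPKM (1.21, limma adjusted p 0.0145). It entered the test through the homo-labelled tumors alone, so it had to differ.

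Other stem cell and Wnt genes leaned the same way without being called. Of 15 crypt stem cell genes, 7 were higher and 0 lower at an unadjusted p below 0.05 (median 0.49), where 3.13% of all genes were higher. Smoc2, a crypt base matrix protein, measured 64.0, 80.8 and 63.9 FPKM against 37.8, 28.4 and 42.0 FPKM, and Slc12a2, an ion cotransporter of the crypt base, 78.7, 68.7 and 64.0 against 50.9, 37.4 and 41.3 FPKM. Both had separate groups, with differences of 0.94 and 0.70. Of 24 Wnt targets and nuclear factors, 12 were higher and 0 lower at the same p (median 0.92). The groups were separate for only 1, Dkk3 (0.93), where 4.51% of all genes were separate with homo higher.

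The hetero-labelled tumors differed widely among themselves in Wnt targets, whose mean log2(FPKM + 1) was 5.19, 3.42 and 3.87 in tumors 1, 2 and 3, against 4.77 to 5.01 in the homo-labelled tumors. Wif1, a secreted Wnt inhibitor, measured 238, 150 and 202 FPKM in homo-labelled tumors and 180, 28.5 and 47.9 FPKM in hetero-labelled tumors 1, 2 and 3. Lef1 and Tcf7, partners of beta-catenin on DNA, followed the same order, with 7.44, 0.691 and 1.88 FPKM and 16.7, 2.93 and 4.62 FPKM in hetero-labelled tumors 1, 2 and 3. Axin2, Nkd1 and Notum, feedback inhibitors named after their values were seen, measured 94.7, 86.4 and 148 FPKM in KO-8-hetero tumor 1, above all homo-labelled tumors. In KO-8-hetero tumor 2 they measured 7.62, 5.90 and 8.23 FPKM. KO-8-hetero tumor 2 is also the library with high squamous and muscle markers, and the part of those tissues in the Wnt difference was not tested. Without this library the list median was 0.43, and without tumor 1 it was 1.58.

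**Figure D4:**
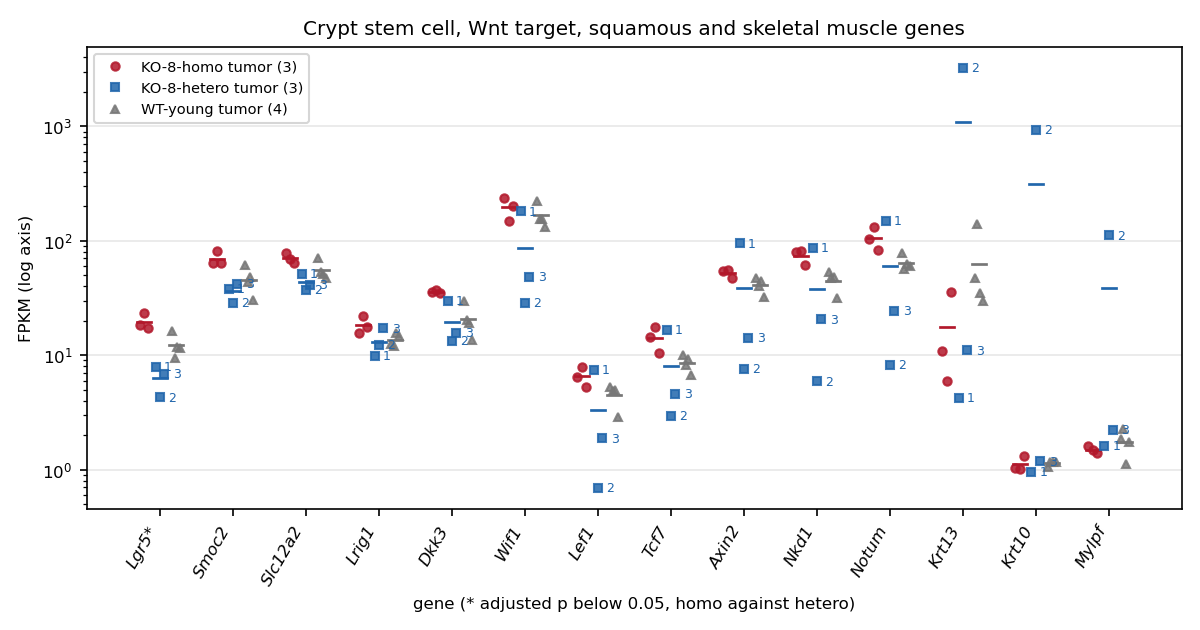
FPKM on a log axis of crypt stem cell, Wnt target, squamous and muscle genes in the KO-8-homo, KO-8-hetero and WT-young tumors; points are libraries, short bars group means, blue digits the hetero replicate numbers, and the star marks the called gene. For Lgr5 and Smoc2 all 3 hetero-labelled tumors lie below the homo-labelled ones, for Axin2, Nkd1 and Notum tumor 1 lies above them, and for Krt13, Krt10 and Mylpf tumor 2 stands alone.

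Proliferation genes had small negative differences, none called. All 28 tested had a fitted difference below 0 (median -0.37), 9 were lower and 0 higher at an unadjusted p below 0.05 (5 with upper-quartile scaling, 14 with quantile normalization), and 18 had separate groups. Over all genes 2.85% were lower at that threshold, and 4.82% had separate groups with homo lower. Mki67, the Ki-67 antigen, measured 18.8, 18.1 and 20.3 FPKM against 24.4, 27.4 and 29.5 FPKM (-0.48, limma adjusted p 0.654). Top2a, a topoisomerase of dividing cells, measured 38.0, 27.1 and 36.1 against 50.03, 45.3 and 51.3 FPKM (-0.53, limma adjusted p 0.603). Rrm2, Mcm5 and Birc5 gave -0.62, -0.55 and -0.73. The housekeeping list had a median of -0.16.

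Outside these lists, the genes with the widest separations were not called. Reg3g, an antimicrobial lectin, measured 34.6, 43.5 and 51.5 FPKM in homo-labelled and 250, 173 and 451 FPKM in hetero-labelled tumors (-2.63, limma adjusted p 0.796). Sprr2h, a cornified envelope protein, measured 2.13, 1.76 and 2.74 against 7.32, 71.4 and 7.10 FPKM, with the highest value in the squamous-marked library. Spink1, a trypsin inhibitor, measured 907, 615 and 980 against 326, 108 and 202 FPKM (2.08, limma adjusted p 0.742). The lipase relative Pnliprp1 had the largest positive difference among genes with separate groups, 2.23, with 56.0, 179 and 139 against 42.3, 7.99 and 34.5 FPKM (limma adjusted p 0.852). Hist3h2ba, Rec8, Nebl, Best2, Scgb1b3, Sval1, Pycr1 and Tesc also had separate groups, with differences of 1.66 to 2.17, and 2210407C18Rik and Mir8112 gave -2.28 each. Of the clock genes, Dbp measured 1.69, 3.49 and 2.41 FPKM against 8.37, 8.91 and 6.35 FPKM (-1.35, limma adjusted p 0.175).

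In normal tissue, with 2 libraries a group, 1442 genes were called (11.1%), 774 higher (5.97%) and 668 lower (5.15%), while 30.7% reached an unadjusted p below 0.05. Both hetero-labelled normal libraries have high Xist and both homo-labelled ones do not, so zygosity label and sex cannot be told apart there. None of the 10 tumor calls was among the normal calls. The GTPases had a median of 0.14, with Ifi47 called higher (18.4 and 16.7 against 5.10 and 5.03 FPKM, 1.61, limma adjusted p 0.0165). The MHC class I list had a median of -0.50, with 1 of 19 called lower. At an unadjusted p below 0.05, 7 of the 19 were lower and 0 higher, where 16.3% of all genes were lower. Interferon-stimulated genes outside the GTPases had a median of -0.25, with 2 of 36 called lower and 1 higher. Ckap5, a microtubule-binding protein, and 4932438A13Rik had the smallest p-values, at differences of 1.91 and 1.77 (limma adjusted p 2.55e-05 for both). Mki67 measured 26.5 and 26.1 FPKM with the homo label and 5.44 and 8.17 FPKM with the hetero label. Of the 28 proliferation genes 14 were called higher in homo-labelled normal tissue. Dbp measured 2.74 and 6.75 against 50.05 and 91.4 FPKM (-3.67, limma adjusted p 9.47e-05), and 6 of 16 clock genes were called lower and 1 higher. The time of day of sampling is not given in the sources used here. With 1 normal library left out, which leaves a lone library assumed to vary like the other groups, the count was 57 without KO-8-homo normal 1, 276 without homo normal 2, 4770 without KO-8-hetero normal 1 and 74 without hetero normal 2.

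The difference between the tumor and the normal comparison was tested as an interaction, which called 413 genes (3.18%), 155 higher (1.20%) and 258 lower (1.99%). All 10 tumor calls were among them. The interaction contains the same tumor differences by which those 10 were called, so this overlap is not separate evidence. For Gbp2 the interaction was -2.43 (limma adjusted p 0.0452), for Irgm1 -2.38 (limma adjusted p 0.00862) and for Lgr5 1.82 (limma adjusted p 0.0315). Of the 19 GTPases 13 passed, all lower, and of the 28 proliferation genes 14 passed, all lower. Of the 19 MHC class I genes 0 passed, and of the 36 interferon-stimulated genes outside the GTPases 1 passed higher and 1 lower. The interaction carries the imbalance of Xist in the normal libraries, and its count was 24, 67, 3493 and 44 without each of those normal libraries in the same order.

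**Figure D5:**
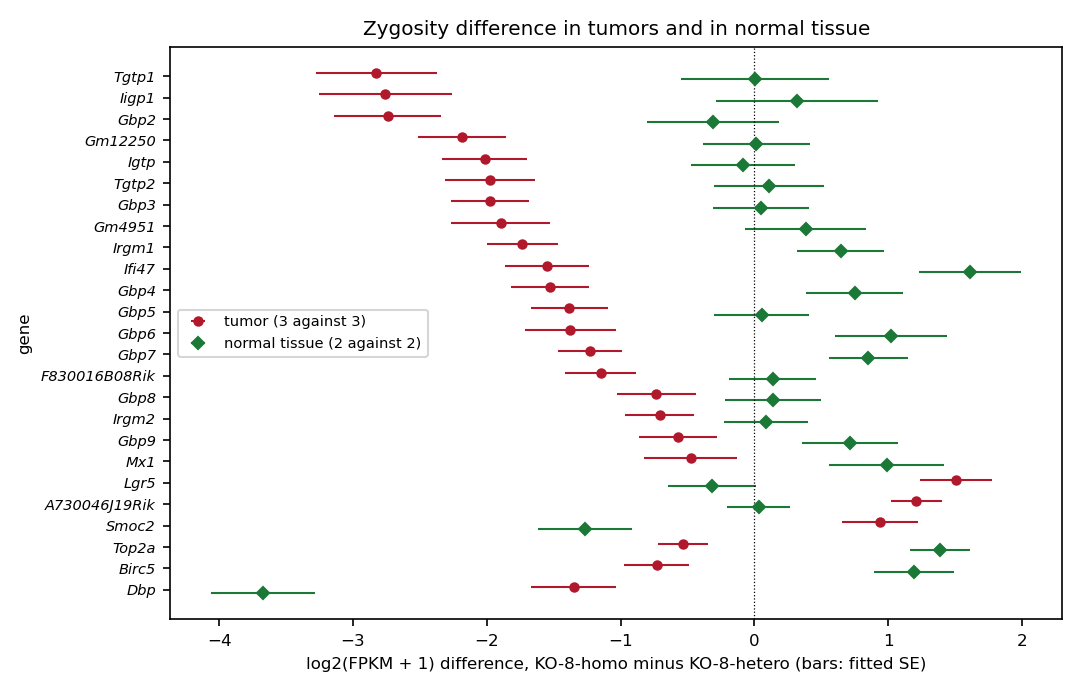
Fitted log2(FPKM + 1) difference, KO-8-homo minus KO-8-hetero, in tumors (circles, 3 against 3) and in normal tissue (diamonds, 2 against 2), with bars of 1 fitted SE. The GTPases lie below 0 in tumors (Gbp2 at -2.74) and near or above it in normal tissue (-0.31), while Top2a and Birc5 are below 0 in tumors and above it in normal tissue.

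The calls rest on small groups and on the spread shared with the other 18 libraries. Leaving out any 1 of the 3 homo-labelled tumors left 0 genes called (smallest limma adjusted p 0.0635, 0.0707 and 0.103, with 525, 602 and 547 genes at an unadjusted p below 0.05), and a fit on the 6 tumors alone also called 0 (575 at an unadjusted p below 0.05). Without the first hetero-labelled tumor the count was 392 of 12969 genes, 268 higher and 124 lower. Among them were all 10 genes above, 13 of 19 GTPases and 14 of 24 Wnt targets. For 151 of the 268 the left-out tumor itself lay above all homo-labelled tumors, for 77 inside their range and for 40 below it. For the 124 it lay below their range for 47, inside for 31 and above for 46. It thus went against the call for the 151 and the 47. Leaving out tumor 2 gave 6 calls, 5 of them shared, and leaving out tumor 3, the one with high Xist, gave 5, of which 2 were shared. Over the 25 alternatives run, the Gbp2 difference ranged from -2.94 to -2.41 (limma adjusted p 0.00555 to 0.15) and that of Lgr5 from 1.28 to 1.66 (limma adjusted p 0.00929 to 0.293).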

How the data were processed

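Per the labels' protocols, a miRNeasy kit gave the RNA and a stranded TruSeq mRNA kit the libraries. The authors deposited 1 table of FPKM values per library; the submitters' processing notes name TopHat2 2.1.1, Bowtie2 2.2.8, SAMtools 0.1.18, Cuffdiff 2.2.1 and mm10, with no order, and the annotation is not given in the sources used here. A count model does not suit FPKM, and total depth is unknown; relative depth was estimated from the spacing of the lowest values. Values were taken as log2(FPKM + 1) with no further scaling and tested in limma 3.58.1 (R 4.3.3), with 1 model of all 10 groups and 24 libraries, intensity trend, two-sided tests and Benjamini-Hochberg adjustment over the 12969 genes, threshold 0.05. The fit was tested on simulated data drawn with the same spread in every group. The homo- and hetero-labelled tumors had median SDs of 0.132 and 0.261, so the simulation did not cover their unequal spread. Figures used numpy and matplotlib. Genes named were the called genes, the 10 widest rises and falls with separate groups, up to 4 smallest-p members of each of 46 gene lists, 3 per further comparison and all tested GTPases; others are marked. The members and lists were chosen with earlier results of these data known, so no list was given a p. Promoter windows came from RefSeq and were matched by symbol. Alternatives covered the libraries fitted, pseudocount, filters, scaling, variance model, replicate block and each library left out; leaving out the 6 libraries with Xist above 1 FPKM was chosen after seeing the data. One gene of the interferon pathway list is not reported here.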

Additional observations from a re-analysis of the deposited data

Results flagged for a closer look

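The difference between homo- and hetero-labelled libraries was not the same in tumors and in normal tissue for 413 genes, by the interaction test of limma at an adjusted p below 0.05. For the GTPases named above, the tumor difference minus the normal difference on the log2 scale was Ifi47 -3.16, Irgm1 -2.38, Gbp7 -2.08, Gbp4 -2.28, Gbp6 -2.4, Gbp3 -2.03, Gm12250 -2.2, Tgtp1 -2.83, Iigp1 -3.07, Tgtp2 -2.09, Gm4951 -2.28, Igtp -1.93 and Gbp2 -2.43. For the genes of dividing cells and the pair with the smallest p it was Top2a -1.92, Birc5 -1.92, Mki67 -2.31, Rrm2 -1.35, Ckap5 -2.02 and 4932438A13Rik -1.85. The stem cell genes and the X-linked gene called in tumors gave Lgr5 1.82, Smoc2 2.2 and A730046J19Rik 1.18, and the clock output genes Dbp 2.32 and Tef 1.81. Among the genes with the widest separations in tumors it was Spink1 6.38, Sval1 6.3, Best2 5.18, 2210407C18Rik -5.02 and Reg3g -7.03. Both hetero-labelled normal libraries and none of the homo-labelled ones had high Xist, so sex and label cannot be told apart in the normal part of each of these contrasts.

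In the 4 WT-young tumors, 1 library was flagged by its gap to the other 3, relative to the range, for 3 of the 20 genes checked. These were Gbp2 at 284 FPKM, Psmb9 at 107 FPKM and Tgtp2 at 23.1 FPKM. For Tgtp2 the other 3 measured 19.95, 20.1 and 20.2 FPKM, so the gap was small in FPKM. Chance flags about 1 in 20 such groups.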

How the results depend on the processing

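The count of 10 tumor calls became 0 with only the 6 KO-8 tumors or only the 14 tumors, 6 with a pseudocount of 0.1, 30 with quantile normalization and 4 without the 6 high-Xist libraries, and ranged from 0 to 392 with 1 library left out. GTPases called, 8 as reported, became 0, 0, 5 with no filter on level, 14 with quantile normalization, 5 with array weights and 1 without the high-Xist libraries, and ranged from 0 to 13 with 1 library left out. The 1442 normal calls became 716 with quantile normalization, 45 with array weights and 640 at an absolute difference of at least 1, with a range of 57 to 4770, the highest without KO-8-hetero normal 1. The 413 interaction calls became 229 and 12 with quantile normalization and array weights, with a range of 24 to 3493. Upper-quartile scaling split the normal calls into 933 higher and 457 lower and the interaction calls into 123 and 320. Replicate numbers in homo and hetero tumors share only a number: deviations of same-numbered libraries correlated at 0.129, -0.162 and -0.0519, and a replicate block gave 11 tumor, 1179 normal and 310 interaction calls and 7 GTPases.

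Maf and 6 of the 81 other genes followed changed direction under at least 1 alternative, and 75 did under none of the 23 to 25 alternatives that could be run for each. Maf reversed to 0.091 with array weights and ranged from -0.26 to 0.13 with 1 library left out. Wwox reversed to 0.0049 with upper-quartile scaling and 0.044 with array weights and ranged from -0.086 to 0.12 with 1 library left out. The same ranges were -4.42 to 0.034 for Krt10 and -3.76 to 0.87 for Krt13 (both reversed without KO-8-hetero tumor 2), -0.14 to 1.72 for Ddx3y, -0.28 to 0.26 for Cd3e and -0.16 to 0.28 for Gzmb. Cd3e also reversed to 0.029 with a pseudocount of 0.1 and 0.082 with array weights, Gzmb to -0.0080 with quantile normalization, and Ddx3y to -0.14 without the high-Xist libraries. The cause of these shifts was not tested. Precision of low genes is limited by the unknown total depth and by 3 libraries a group.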
